A study of Mus musculus with 8 samples.

Results

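The 9 genes Peg3, Peg10, Sgce, Mest, Plagl1, Sfmbt2, Grb10, Ndn and Nnat, imprinted genes grouped as paternally expressed, were taken by their symbols from a table of 26930 genes. Their RNA was followed in mouse embryonic fibroblasts on day 8 of reprogramming towards pluripotency with OKSM (Oct4, Klf4, Sox2 and Myc), grown in a medium labelled AGi. Each of the 4 groups had 2 libraries: K36M cells given 2.5 ng/ml TGFb-1, K36M cells given 250 nM Repsox, WT cells given 2.5 ng/ml TGFb-1, and WT cells given 250 nM Repsox. K36M is a form of histone H3 with a methionine in place of a lysine whose methylation marks transcribed chromatin. The labels describe WT also as H3. TGFb-1 is a growth factor that drives fibroblasts and epithelial cells towards a mesenchymal state, and Repsox blocks its type I receptor. The labels do not say how K36M was brought into the cells, whether a group is 1 clone, or whether its libraries came from separate cultures, so p-values measure the spread between these libraries, which may be technical. Every group received 1 of the 2 agents and the reprogramming factors, so that each value below is set against another reprogramming group and not against untreated fibroblasts.

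An imprinted gene is read from only 1 parental copy. The copies are told apart by DNA methylation that is set in the egg or the sperm, kept by the zinc finger protein ZFP57 with TRIM28 and DNMT1, and lost where that upkeep fails. Paternally expressed genes are active mainly in the embryo, the placenta and the brain, where many of them act on growth, and cells brought to pluripotency often show disturbed imprints. Gene counts add up both parental copies, so no value here says which copy was read. The label of Grb10 needs a limit from background knowledge: in most mouse tissues it is read from the maternal copy, and from the paternal copy mainly in neurons. Sfmbt2 is known as imprinted chiefly in extraembryonic tissue.

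Promoters of members with different courses across the groups are shown so that their letters stand beside the values, with the factors known to read imprinted loci in view. RefSeq sequences (GRCm38.p6) from 250 bases before to 50 bases after a transcription start covered 7 of the 9 members with 11 promoters, and Peg10 and Sgce are named only. Capitals mark TGCCGC, read by ZFP57, on either strand (GCGGCA on the strand shown), or CCATNTT, the core read by YY1, on either strand. The Peg3 promoter (chr7:6730370-6730669, minus strand) held 13 CpG dinucleotides and neither motif.
Peg3: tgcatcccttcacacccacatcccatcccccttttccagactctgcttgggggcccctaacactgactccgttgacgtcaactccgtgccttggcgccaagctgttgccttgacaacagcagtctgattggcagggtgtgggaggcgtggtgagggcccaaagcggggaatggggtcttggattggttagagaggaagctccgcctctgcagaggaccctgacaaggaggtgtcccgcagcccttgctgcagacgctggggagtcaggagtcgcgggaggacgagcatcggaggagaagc
One of the Sfmbt2 promoters (chr2:10372186-10372485, plus strand) held 16 CpG dinucleotides and 1 YY1 match.
Sfmbt2: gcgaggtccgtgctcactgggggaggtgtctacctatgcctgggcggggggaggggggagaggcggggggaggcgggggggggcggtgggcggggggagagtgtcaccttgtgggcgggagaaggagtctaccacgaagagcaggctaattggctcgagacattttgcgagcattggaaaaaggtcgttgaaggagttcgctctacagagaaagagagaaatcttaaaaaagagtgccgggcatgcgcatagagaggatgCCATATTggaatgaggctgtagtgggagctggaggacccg
One of the Mest promoters (chr6:30737800-30738099, plus strand) held 17 CpG dinucleotides and 2 ZFP57 matches.
Mest: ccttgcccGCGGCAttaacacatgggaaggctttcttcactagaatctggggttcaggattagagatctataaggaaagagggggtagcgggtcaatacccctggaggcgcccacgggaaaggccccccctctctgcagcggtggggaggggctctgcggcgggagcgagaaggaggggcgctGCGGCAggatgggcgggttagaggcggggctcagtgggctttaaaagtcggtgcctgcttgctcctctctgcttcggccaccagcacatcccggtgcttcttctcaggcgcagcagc
The Plagl1 promoter (chr10:13090582-13090881, plus strand) held 26 CpG dinucleotides and 1 ZFP57 match.
Plagl1: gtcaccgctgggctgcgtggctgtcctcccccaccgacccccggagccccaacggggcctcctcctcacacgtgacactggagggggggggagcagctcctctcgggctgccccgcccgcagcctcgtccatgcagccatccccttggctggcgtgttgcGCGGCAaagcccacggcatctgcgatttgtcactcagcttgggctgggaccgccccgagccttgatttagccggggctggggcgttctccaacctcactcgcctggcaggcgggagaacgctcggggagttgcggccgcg
The Nnat promoter (chr2:157559828-157560127, plus strand) held 17 CpG dinucleotides and 1 match to each motif.
Nnat: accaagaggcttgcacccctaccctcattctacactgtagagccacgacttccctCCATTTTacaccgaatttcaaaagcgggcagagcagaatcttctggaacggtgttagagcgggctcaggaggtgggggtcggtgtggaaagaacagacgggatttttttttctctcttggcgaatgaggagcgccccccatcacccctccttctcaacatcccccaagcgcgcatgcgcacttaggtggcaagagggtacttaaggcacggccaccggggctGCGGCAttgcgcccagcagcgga
Over the 32851 promoters of that table the median was 7 CpG dinucleotides, 11.6% held the ZFP57 letters, 16.1% the YY1 letters and 13.6% TATAAA, searched on both strands. Of the 11 member promoters, 5 held the ZFP57 letters, 3 the YY1 letters and 0 TATAAA. Counted by gene, with any promoter of a gene, 4 of 7 members (Mest, Plagl1, Grb10 and Nnat) held the ZFP57 letters, against 13.1% of all genes in that table, and 3 (Sfmbt2, Grb10 and Nnat) the YY1 letters, against 18.2%. Of the 2 Mest promoters with the ZFP57 letters, one starts 3 bases from the other, so they are nearly the same sequence. TGCCGC itself holds a CpG, and the 11 member promoters held 8 to 45 CpG dinucleotides, all above the median. The shares over all genes are therefore not matched to the members for CpG content. No motif shares letters with another. A match is a description of these windows and not a bound site, and the lack of a match does not speak for bases outside the window.

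Library totals ran from 10928302 to 15594217 counts, and Spearman's correlation across genes between the 2 libraries of a group was 0.966 to 0.970. Levels are CPM, counts scaled to a common library size with factors by the trimmed mean of M values (TMM), given per library or as mean ± SD (n = 2 libraries). Marker genes show how far the groups differed in cell state. The summed level of 14 fibroblast genes was 956 to 978 CPM in K36M TGFb, 224 to 260 in K36M Repsox, 11690 to 13086 in WT TGFb and 3753 to 4058 in WT Repsox, with Lum at 0 in WT TGFb. The genes did not all follow this sum: for TGFb against Repsox in WT cells, 6 were higher, 7 lower and 1 not called, with a median log2 difference of -0.20. Vim and Col1a2 alone averaged 4975 and 3285 CPM in WT TGFb, against 1854 and 267 in WT Repsox. The 12 epithelial genes summed to 4348 to 4525 CPM in K36M TGFb, 5451 to 5674 in K36M Repsox, 161 to 206 in WT TGFb and 2298 to 2426 in WT Repsox. Of pluripotency genes, 12 summed to 1115 to 1131 CPM in K36M TGFb, 2095 to 2102 in K36M Repsox, 46.4 to 53.7 in WT TGFb and 1438 to 1675 in WT Repsox. Genes of muscle, endothelium and blood summed to at most 84.9, 121 and 78.7 CPM in any library, but muscle genes differed between genotypes. The 10 muscle genes summed to 81.6 to 84.9 CPM in K36M TGFb and 28.9 to 31.6 in K36M Repsox. In WT cells they summed to 10.8 to 13.3 CPM under TGFb and 7.17 to 11.3 under Repsox. Of the 6 tested, 5 were higher in K36M than in WT and 0 lower, under TGFb and under Repsox. These are bulk samples, in which fewer cells of a type and less RNA per cell cannot be told apart, and the part of cell state in the results below was not tested.

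Per kilobase of exon, the 9 genes covered a wide range of levels. Peg10 stood highest in K36M TGFb (204 ± 3.33 CPM per kb), K36M Repsox (1227 ± 7.03) and WT Repsox (629 ± 43.8), while in WT TGFb Grb10 did (102 ± 5.18, against 15.1 ± 3.64 for Peg10). By CPM, Peg10 ranked 36 of 15789 tested genes in K36M TGFb, 4 in K36M Repsox, 2494 in WT TGFb and 9 in WT Repsox. Its reads made up 0.829 and 0.849% of all counts in the K36M Repsox libraries. Sfmbt2 was the lowest member per kilobase in WT TGFb (0.500 ± 0.148 CPM per kb), and Mest the lowest in K36M TGFb (6.62 ± 0.336) and K36M Repsox (3.57 ± 0.322). The 9 genes summed to 3359 to 3386 CPM in K36M TGFb, 10675 to 10719 in K36M Repsox, 1267 to 1379 in WT TGFb and 5880 to 6379 in WT Repsox. Peg10 was the largest part of these sums outside WT TGFb, where Grb10 was.

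**Figure D1:**
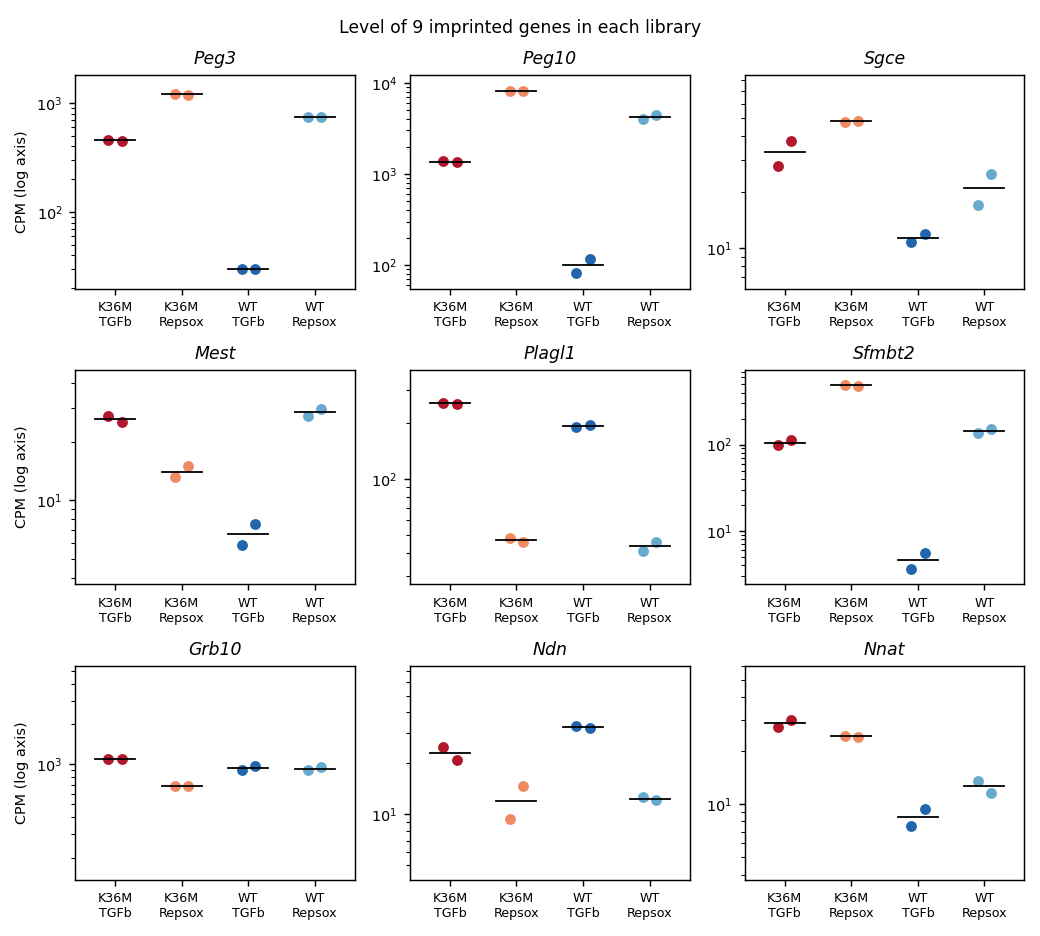
CPM on a log axis for each of the 9 genes in every library of K36M TGFb, K36M Repsox, WT TGFb and WT Repsox (points are libraries, lines are means of 2 libraries). Peg3, Peg10 and Sfmbt2 are highest in K36M Repsox and lowest in WT TGFb, while Plagl1 is high in both TGFb groups.

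With TGFb present, 8 of the 9 genes were higher in K36M than in WT cells and 1, Ndn, was lower. The largest differences were those of Sfmbt2 (22.7-fold), Peg3 (15.3-fold) and Peg10 (13.5-fold), and Mest, Nnat and Sgce were 2.86-fold to 3.87-fold higher. Called genes, at a Benjamini-Hochberg adjusted p below 0.05 in edgeR's quasi-likelihood test, made up 70.3% of all tested genes in this comparison, 36.4% higher and 33.9% lower, so a call by itself is common here. For all 9 members the K36M and WT libraries were apart without overlap, as they were for 85.2% of all genes. The median log2 fold change was 1.75 over the members and 0.05 over all genes. Without regard to sign, the median was 1.75 over the members and 0.79 over all genes. The calls of 2 members rested on 1 library each: Ndn was at -0.38 (adjusted p = 0.0878) without K36M TGFb replicate 2 and Grb10 at 0.17 (adjusted p = 0.0603) without WT TGFb replicate 1. Over all alternatives the adjusted p ran from 0.000359 to 0.0878 for Ndn and from 0.000211 to 0.0603 for Grb10.

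With Repsox present, 5 members were higher in K36M than in WT cells (Sfmbt2, Sgce, Peg10, Nnat and Peg3, 1.60-fold to 3.36-fold) and 2 were lower (Mest, 2.02-fold, and Grb10, 1.35-fold). Plagl1 and Ndn were not called. Of all tested genes, 55.8% were called here, 28.8% higher and 26.9% lower. The groups did not overlap for 7 members, against 75.4% of all genes. The median log2 fold change was 0.68 over the members and 0.04 over all genes, and without regard to sign 0.94 and 0.47.

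Set against Repsox, TGFb had effects of both signs. In K36M cells 4 members were higher under TGFb (Plagl1, Ndn, Mest and Grb10) and 4 were lower (Peg10, Sfmbt2, Peg3 and Sgce), where 48.3% of all genes were called, 24.7% higher and 23.6% lower. In WT cells 2 were higher under TGFb (Plagl1 and Ndn) and 6 were lower (Peg10, Sfmbt2, Peg3, Mest, Sgce and Nnat), where 62.4% were called, 29.0% higher and 33.4% lower. The groups did not overlap for 9 members in K36M cells (75.1% of all genes) and for 8 in WT cells (79.4%). The median log2 fold change of the members was 0.25 in K36M cells, against 0.01 over all genes, and -0.88 in WT cells, against -0.07 over all genes. Taken without sign, it was 0.94 against 0.42 in K36M cells and 2.07 against 0.62 in WT cells.

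**Figure D2:**
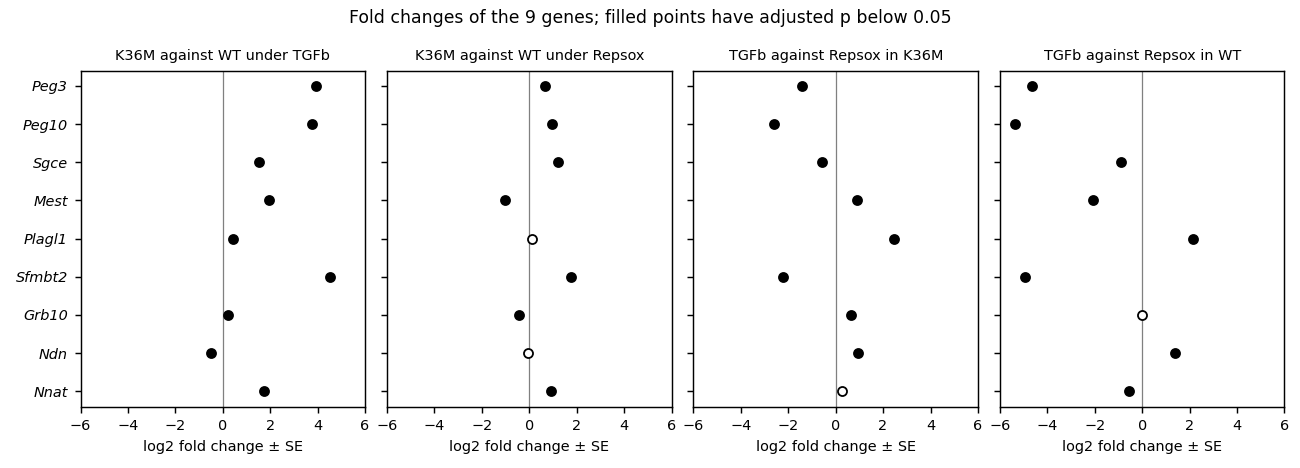
Log2 fold changes of the 9 genes with their standard errors (bars, mostly hidden by the points) in the 4 pairwise comparisons (K36M over WT, and TGFb over Repsox), filled where called. Sfmbt2, Peg3 and Peg10 have the largest differences of K36M over WT under TGFb, and Grb10 stays between -0.43 and 0.66 in all 4.

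The medium effect differed between the genotypes for 7 members. The interaction, the log2 effect of TGFb over Repsox in K36M cells minus that in WT cells, was called as positive for Peg3, Mest, Peg10, Sfmbt2, Nnat, Grb10 and Plagl1. It was called as negative for 0 members in edgeR at the adjusted p, and also for 0 by DESeq2 and at an unadjusted p under 0.05. Of all genes, 51.0% had a called interaction, 28.5% positive and 22.6% negative. The median was 0.82 over the members and 0.09 over all genes. Taken without sign, the medians were nearer, at 0.82 over the members and 0.68 over all genes. For Plagl1 (0.29 ± 0.12 SE, adjusted p = 0.0424) the call did not hold under 10 of 12 alternatives, over which the adjusted p ran from 0.00413 to 0.158. Sgce (0.32 ± 0.23, adjusted p = 0.257) and Ndn (-0.45 ± 0.23, adjusted p = 0.114) were not called, but Sgce was called without WT Repsox replicate 1 (0.58, adjusted p = 0.0211) and Ndn without K36M Repsox replicate 1 (-0.75, adjusted p = 0.00890). Over all alternatives the adjusted p ran from 0.0211 to 0.935 for Sgce and from 0.00890 to 0.744 for Ndn.

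**Figure D3:**
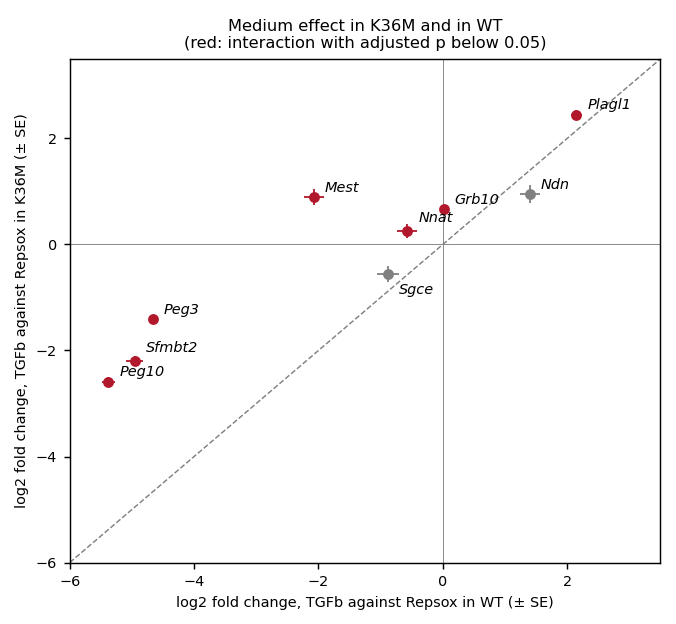
Log2 effect of TGFb over Repsox in K36M cells (vertical) against that in WT cells (horizontal) for each of the 9 genes, with standard errors as bars. The dashed line marks equal effects and red points a called interaction. Peg3, Peg10 and Sfmbt2 lie below 0 in both genotypes and further below in WT, Mest lies above 0 in K36M and below 0 in WT, and Plagl1 and Ndn lie above 0 in both.

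Averaged over both media, 7 members were higher in K36M than in WT cells, led by Sfmbt2 (log2 3.12 ± 0.08 SE), Peg10 (2.36 ± 0.06) and Peg3 (2.31 ± 0.05), and 2 were lower. Of all genes, 71.2% were called in that average, 37.5% higher and 33.8% lower. For 2 members the average covers opposite signs and describes neither medium. Mest, among the 7, was at 1.95 under TGFb and -1.02 under Repsox. Grb10, among the 2, was at 0.22 under TGFb and -0.43 under Repsox. The 2 lower members, Grb10 (-0.11 ± 0.04, adjusted p = 0.0273) and Ndn (-0.28 ± 0.12, adjusted p = 0.0375), lost the call under 5 and 6 of 12 alternatives, with adjusted p from 0.00156 to 0.154 for Grb10 and from 0.00192 to 0.329 for Ndn. Ndn was at -0.13 without K36M Repsox replicate 1 and at -0.45 without K36M Repsox replicate 2. Averaged over both genotypes, 3 members were higher under TGFb (Plagl1, 2.30 ± 0.06, Ndn, 1.17 ± 0.12, and Grb10, 0.34 ± 0.04) and 5 were lower, led by Peg10 (-3.98 ± 0.07), Sfmbt2 (-3.58 ± 0.08) and Peg3 (-3.03 ± 0.05). Nnat was not called (-0.16 ± 0.11, adjusted p = 0.196). In that average 59.8% of all genes were called, 27.4% higher and 32.5% lower. Mest, among the 5 lower, was at 0.90 in K36M and -2.07 in WT cells.

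The groups that differ in both factors place the steps in each member's order of levels. In K36M TGFb against WT Repsox, 5 members were higher and 3 lower, where 53.6% of all genes were called, 26.6% higher and 27.0% lower, and all 9 were without overlap, against 74.0% of all genes. In K36M Repsox against WT TGFb, 6 members were higher and 3 lower (Plagl1, Ndn and Grb10), where 72.7% were called, 38.7% higher and 34.0% lower, and all 9 were without overlap, against 87.2% of all genes.

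Among the regulators of transcription, Peg3 (ENSMUSG00000002265, chr7:6656603-6683132 on the minus strand of mm9) encodes a large zinc finger protein that binds DNA. It had 462 and 447 CPM in the K36M TGFb libraries and 1219 and 1189 in K36M Repsox, against 29.7 and 29.7 in WT TGFb and 750 and 751 in WT Repsox. The 4 groups stood apart from each other, with K36M Repsox highest, then WT Repsox, K36M TGFb and WT TGFb. Peg3 was higher in K36M than in WT cells under TGFb (log2 3.94 ± 0.07 SE, adjusted p = 2.96e-21) and less so under Repsox (0.68 ± 0.06, adjusted p = 1.56e-09). TGFb cells had less Peg3 RNA than Repsox cells in K36M (-1.41 ± 0.06, adjusted p = 1.55e-14) and in WT (-4.66 ± 0.07, adjusted p = 4.70e-22). The interaction of 3.25 ± 0.09 (adjusted p = 3.63e-17) measures the gap between those effects. By p-value, Peg3 ranked 2 of all 15789 genes for TGFb against Repsox in WT cells. By size of the log2 change it stood lower, at percentile 96.3 of all genes, below Sfmbt2 (96.9) and Peg10 (97.6).

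Sfmbt2 (ENSMUSG00000061186, chr2:10292137-10516880 on the plus strand of mm9) encodes a Polycomb group protein with MBT repeats and carries a large cluster of microRNA genes within its introns, and the mouse placenta depends on it. Its level was 99.1 and 112 CPM in the K36M TGFb libraries and 487 and 483 in K36M Repsox, against 3.61 and 5.52 in WT TGFb and 136 and 153 in WT Repsox. The order of the groups was that of Peg3, and each step of it passed the test. The smallest step, K36M TGFb below WT Repsox, was -0.45 ± 0.09 on the log2 scale (adjusted p = 0.000243). Sfmbt2 had the largest differences of all members between the genotypes, 4.50 ± 0.13 under TGFb (adjusted p = 5.48e-18) and 1.75 ± 0.09 under Repsox (adjusted p = 2.49e-13). Its medium effects were -2.20 ± 0.09 in K36M (adjusted p = 1.26e-14) and -4.96 ± 0.13 in WT cells (adjusted p = 1.25e-18), with an interaction of 2.75 ± 0.17 (adjusted p = 6.53e-12). Between the groups at the ends of the order, K36M Repsox and WT TGFb, the level was 104-fold higher in K36M Repsox. The WT TGFb value rests on 42 and 77 counts.

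Plagl1 (ENSMUSG00000019817, chr10:12810497-12851500 on the plus strand of mm9) encodes a zinc finger transcription factor that can halt the cell cycle, and it ran the other way. The libraries had 257 and 254 CPM in K36M TGFb and 48.1 and 45.6 in K36M Repsox, against 189 and 194 in WT TGFb and 40.6 and 45.8 in WT Repsox. Both TGFb groups stood above both Repsox groups, by 2.44 ± 0.09 on the log2 scale in K36M (adjusted p = 6.85e-16) and 2.15 ± 0.09 in WT cells (adjusted p = 1.10e-15). K36M cells had more than WT cells under TGFb (0.41 ± 0.08, adjusted p = 7.03e-05). Under Repsox the libraries of the genotypes overlapped and the difference was 0.12 ± 0.09 (adjusted p = 0.273).

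Peg10 (ENSMUSG00000092035, chr6:4697306-4710514 on the plus strand of mm9) derives from a retrotransposon, encodes a Gag-like protein and, by ribosomal frameshift, a Gag-Pol-like one, and is needed for the mouse placenta to form. It had 1373 and 1342 CPM in the K36M TGFb libraries and 8140 and 8206 in K36M Repsox, against 83.2 and 117 in WT TGFb and 3982 and 4395 in WT Repsox. Its groups took the order of Peg3 and Sfmbt2, without overlap between libraries of neighbouring groups. TGFb cells had 6.02-fold less than Repsox cells in K36M (log2 -2.59 ± 0.09, adjusted p = 7.00e-16) and 41.6-fold less in WT (-5.38 ± 0.11, adjusted p = 7.98e-21), and the interaction was 2.79 ± 0.13 (adjusted p = 5.27e-14). K36M cells exceeded WT cells by 3.75 ± 0.10 under TGFb (adjusted p = 7.25e-19) and by 0.96 ± 0.09 under Repsox (adjusted p = 2.74e-09).

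Sgce (ENSMUSG00000004631, chr6:4624350-4697204 on the minus strand of mm9) encodes epsilon-sarcoglycan, a membrane protein of the dystrophin-associated complex. It starts 102 bp from Peg10 on the opposite strand, and both are imprinted from 1 shared region. Its libraries had 27.7 and 37.8 CPM in K36M TGFb and 47.8 and 48.5 in K36M Repsox, against 10.7 and 12.0 in WT TGFb and 17.1 and 25.1 in WT Repsox. Here genotype came before medium in the order of levels: both K36M groups stood above both WT groups. The step between K36M TGFb and WT Repsox was 0.64 ± 0.16 on the log2 scale (adjusted p = 0.00169), and no alternatives were run for it. The genotype difference was 1.52 ± 0.17 on the log2 scale under TGFb (adjusted p = 5.59e-08) and 1.20 ± 0.15 under Repsox (adjusted p = 6.91e-07). The medium effect was -0.56 ± 0.15 in K36M (adjusted p = 0.00350) and -0.88 ± 0.18 in WT cells (adjusted p = 0.000153). Without K36M TGFb replicate 1 the effect in K36M was -0.35 and not called (adjusted p = 0.125, over all alternatives 3.78e-06 to 0.125), and without WT Repsox replicate 2 the effect in WT was -0.58 (adjusted p = 0.00543, over all alternatives 8.94e-09 to 0.00543).

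The ratio of the pair differed between groups. Peg10 had 49.6 and 35.5 counts for each Sgce count in the K36M TGFb libraries and 170 and 169 in K36M Repsox, against 7.74 and 9.81 in WT TGFb and 233 and 175 in WT Repsox. Both Repsox groups lay above both TGFb groups in this ratio.

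Mest (ENSMUSG00000051855, chr6:30673547-30698457 on the plus strand of mm9), also called Peg1, encodes an enzyme of the alpha/beta-hydrolase family. It had 27.0 and 25.1 CPM in the K36M TGFb libraries and 13.2 and 14.9 in K36M Repsox, against 5.85 and 7.53 in WT TGFb and 27.2 and 29.6 in WT Repsox. The effect of the medium turned round between genotypes: Mest was higher under TGFb in K36M (0.90 ± 0.14 on the log2 scale, adjusted p = 1.74e-05) and lower under TGFb in WT cells (-2.07 ± 0.16, adjusted p = 9.07e-11). The interaction was 2.97 ± 0.21 (adjusted p = 9.86e-11). The genotype difference also changed sign, at 1.95 ± 0.16 under TGFb (adjusted p = 2.54e-10) and -1.02 ± 0.14 under Repsox (adjusted p = 2.08e-06). K36M TGFb and WT Repsox, the upper groups, did not differ beyond the test (-0.12 ± 0.13 for K36M TGFb over WT Repsox, adjusted p = 0.467). Of the exonic bases of Mest, 904 bp (23.0%) lie over Copg2 on the opposite strand, and the strand setting of the counting is not given in the sources used here, so reads there could belong to either gene.

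Grb10 (ENSMUSG00000020176, chr11:11830511-11938686 on the minus strand of mm9) encodes an adaptor that binds the insulin and IGF1 receptors and dampens their signals. It was abundant in every group, with 1089 and 1091 CPM in K36M TGFb and 686 and 692 in K36M Repsox, against 904 and 971 in WT TGFb and 901 and 956 in WT Repsox. Its differences were the smallest of the 9 for K36M against WT under TGFb and for TGFb against Repsox in WT cells. In WT cells the medium made no detectable difference (0.01 ± 0.06 on the log2 scale, adjusted p = 0.850) and the libraries overlapped. K36M cells had more under TGFb than under Repsox (0.66 ± 0.06, adjusted p = 3.82e-09), and the interaction was 0.65 ± 0.08 (adjusted p = 9.85e-07). K36M differed from WT cells by 0.22 ± 0.06 under TGFb (adjusted p = 0.00246) and by -0.43 ± 0.06 under Repsox (adjusted p = 2.00e-06).

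Ndn (ENSMUSG00000033585, chr7:69493163-69494814 on the plus strand of mm9) encodes necdin, a MAGE family protein that restrains growth in neurons and lies in the mouse counterpart of the Prader-Willi region. Its libraries had 24.9 and 21.0 CPM in K36M TGFb and 9.41 and 14.7 in K36M Repsox, against 32.9 and 32.3 in WT TGFb and 12.6 and 12.2 in WT Repsox. Like Plagl1 it was higher under TGFb, by 0.94 ± 0.17 on the log2 scale in K36M (adjusted p = 6.59e-05) and by 1.40 ± 0.16 in WT cells (adjusted p = 1.04e-07). Under TGFb it was the only member lower in K36M than in WT cells (-0.51 ± 0.15, adjusted p = 0.00584). Under Repsox the genotypes overlapped (-0.05 ± 0.18, adjusted p = 0.819).

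Nnat (ENSMUSG00000067786, chr2:157385814-157388258 on the plus strand of mm9) encodes neuronatin, a small membrane protein of the endoplasmic reticulum known from the developing brain and the pancreas. It had 27.4 and 29.9 CPM in the K36M TGFb libraries and 24.2 and 24.0 in K36M Repsox, against 7.57 and 9.33 in WT TGFb and 13.5 and 11.6 in WT Repsox. Both K36M groups were above both WT groups, by 1.75 ± 0.15 under TGFb (adjusted p = 7.36e-10) and 0.94 ± 0.14 under Repsox (adjusted p = 8.17e-06) on the log2 scale. TGFb cells had less than Repsox cells in WT (-0.57 ± 0.16, adjusted p = 0.00412), a call lost without WT TGFb replicate 1 (-0.43, adjusted p = 0.0650, over all alternatives 0.00219 to 0.0650). In K36M cells the medium difference was 0.25 ± 0.13 (adjusted p = 0.135), although the libraries did not overlap. The interaction of Nnat was 0.82 ± 0.21 (adjusted p = 0.00246). The summed level of 10 neural marker genes took another order, with 319 to 336 CPM in K36M TGFb, 167 to 176 in K36M Repsox, 1554 to 1683 in WT TGFb and 215 to 238 in WT Repsox. Of the 8 tested, 2 (Elavl3 and Syp) were higher in K36M than in WT in both media, as Nnat was. More were lower, 6 under TGFb (led by Stmn2, log2 -2.29 ± 0.08 SE) and 3 under Repsox (led by Nes, -1.43 ± 0.09).

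Trophoblast markers are given beside Peg10 and Sfmbt2, since both genes serve the placenta. The 11 of them in the table summed to 272 to 291 CPM in K36M TGFb, 877 to 931 in K36M Repsox, 7.05 to 8.68 in WT TGFb and 298 to 330 in WT Repsox, and Tpbpa, a marker of spongiotrophoblast, was at 0 in every library. Of the 10 tested, 8 were higher in K36M than in WT under TGFb and the other 2 were not called, and 7 were higher and 1 lower under Repsox. In TGFb against Repsox, 8 were lower in K36M cells, with the other 2 not called, and 10 were lower in WT cells. Their part in the levels of Peg10 and Sfmbt2 was not tested.

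Imprinted genes lie in clusters, so the chromosomal neighbours of the members were followed too, with distances on mm9. Within 250 kb of a member lay 22 listed genes, of which 19 were tested. Of these, 7 were higher and 7 lower in K36M than in WT cells under TGFb, and 8 were higher and 6 lower under Repsox. For TGFb against Repsox, 5 were higher and 7 lower in K36M cells, and 8 were higher and 5 lower in WT cells. Their median log2 difference of K36M over WT was 0.02 under TGFb, where it was 0.05 over all genes, and 0.50 under Repsox, where it was 0.04 over all genes. For TGFb over Repsox their median was -0.13 in K36M cells, where it was 0.01 over all genes, and -0.11 in WT cells, where it was -0.07.

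Zim1, an imprinted zinc finger gene 7.4 kb from Peg3, is grouped below as maternally expressed. It had 10.9 and 10.8 CPM in K36M TGFb and 24.3 and 30.1 in K36M Repsox, against 0.688 and 0.287 in WT TGFb and 9.02 and 12.8 in WT Repsox. Its WT TGFb level rests on 8 and 4 counts. Like Peg3 it was higher in K36M than in WT under TGFb (log2 4.50 ± 0.34 SE) and under Repsox (1.32 ± 0.18), and lower under TGFb in both genotypes (-1.33 ± 0.18 in K36M and -4.50 ± 0.34 in WT). Itih5, an inter-alpha-trypsin inhibitor heavy chain gene 114.0 kb from Sfmbt2, had 2.97 and 4.28 CPM in K36M TGFb and 11.7 and 8.92 in K36M Repsox, against 0.172 and 0.287 in WT TGFb and 5.32 and 6.79 in WT Repsox. It too had its highest mean in K36M Repsox and its lowest in WT TGFb, where it had 2 and 4 counts. Its K36M over WT difference under Repsox (0.78 ± 0.24, adjusted p = 0.00846) lost the call without K36M Repsox replicate 1 (0.56, adjusted p = 0.154) and without WT Repsox replicate 1 (0.61, adjusted p = 0.0772), with 0.00418 to 0.154 over all alternatives.

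Casd1, a sialic acid O-acetyltransferase gene 31.0 kb from Sgce, did not follow Peg10. It had 14.5 and 15.4 CPM in K36M TGFb and 31.4 and 34.5 in K36M Repsox, against 27.9 and 31.3 in WT TGFb and 37.3 and 32.5 in WT Repsox, and K36M TGFb stood below the rest (log2 -0.99 ± 0.13 against WT TGFb and -1.14 ± 0.13 against K36M Repsox). Copg2, a coatomer subunit gene that overlaps Mest, had 101 and 95.2 CPM in K36M TGFb and 94.0 and 88.2 in K36M Repsox, against 50.1 and 54.9 in WT TGFb and 51.0 and 52.5 in WT Repsox. It was higher in K36M than in WT under TGFb (0.90 ± 0.09) and under Repsox (0.82 ± 0.09). Its medium comparisons, in which Mest had opposite signs, were not called (0.10 ± 0.08 in K36M, adjusted p = 0.320, and 0.02 ± 0.09 in WT, adjusted p = 0.849).

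Blcap, the gene whose intron holds Nnat on the opposite strand, had 41.9 and 44.3 CPM in K36M TGFb and 79.5 and 78.3 in K36M Repsox, against 87.0 and 80.3 in WT TGFb and 55.4 and 55.8 in WT Repsox. Its interaction was -1.46 ± 0.12 (adjusted p = 1.35e-09), opposite in sign to that of Nnat. The exons of Blcap and Nnat share 0 bases. With the strand setting not given, reads from the Blcap intron could still have been counted for Nnat, which was not tested. Peg12, 111.9 kb from Ndn and also paternally expressed, had 21.0 and 15.6 CPM in K36M TGFb and 5.46 and 5.71 in K36M Repsox, against 30.4 and 32.4 in WT TGFb and 7.34 and 8.98 in WT Repsox. It was higher under TGFb in K36M (log2 1.72 ± 0.18) and in WT cells (1.95 ± 0.16), as Ndn was. Magel2, 27.1 kb from Ndn, had 12 to 28 counts in the K36M libraries, against 0 counts in both WT TGFb libraries and 2 in each WT Repsox library. Ddc, a decarboxylase gene 32.5 kb from Grb10, had 42.7 and 35.2 CPM in K36M TGFb and 17.0 and 16.5 in K36M Repsox, against 24.1 and 26.9 in WT TGFb and 12.1 and 15.8 in WT Repsox. It was higher under TGFb in WT cells (0.88 ± 0.15, adjusted p = 1.93e-05), a comparison in which Grb10 was not called. Cobl, an actin nucleator gene 197.9 kb from Grb10, led the neighbours for K36M against WT, at -3.37 ± 0.10 under TGFb and -2.27 ± 0.10 under Repsox. Ikzf1, a lymphoid transcription factor gene 157.6 kb from Grb10, led them for TGFb against Repsox, with 83 and 108 counts in K36M TGFb, against 17 and 10 in K36M Repsox, and 383 and 401 in WT TGFb, against 2 and 1 in WT Repsox.

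**Figure D4:**
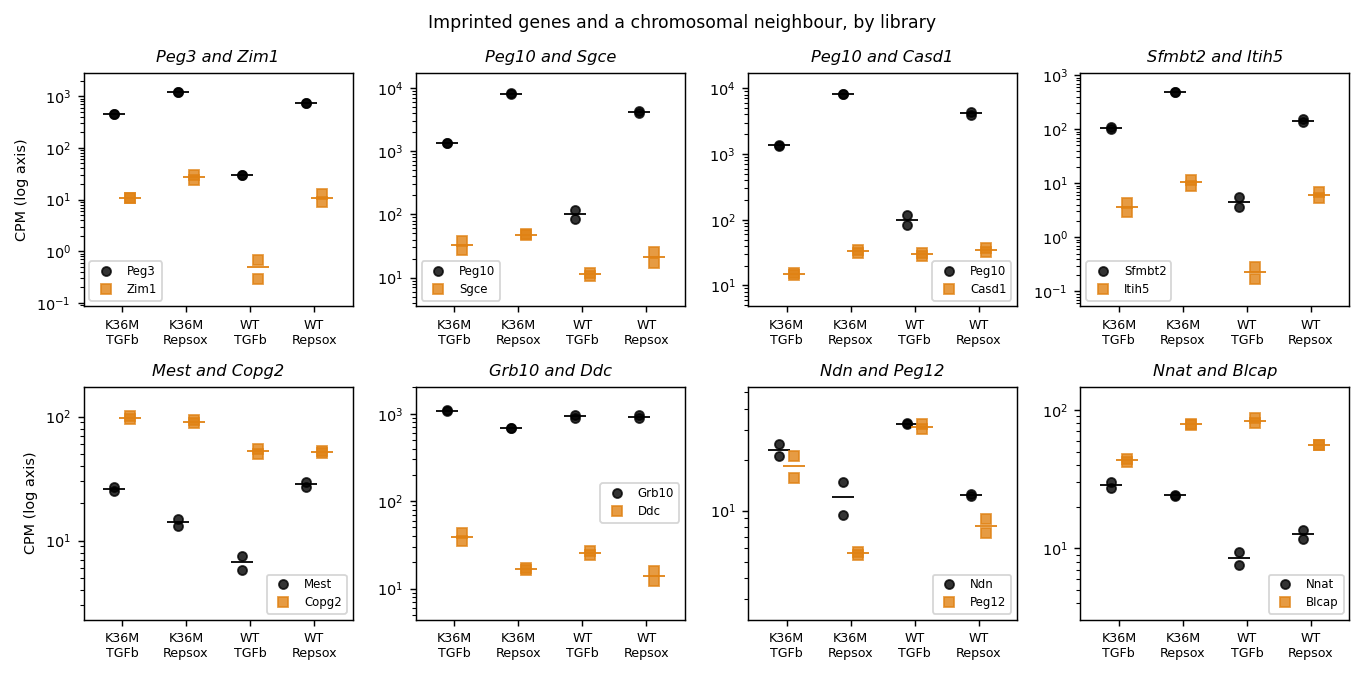
CPM on log axes in every library of K36M TGFb, K36M Repsox, WT TGFb and WT Repsox for a member and a chromosomal neighbour (points are libraries, lines are means of 2). Zim1 and Itih5 are highest in K36M Repsox and lowest in WT TGFb, as Peg3 and Sfmbt2 are, while Casd1, Copg2 and Blcap take other orders than Peg10, Mest and Nnat.

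Other imprinted genes give the setting, in lists that overlap those above. Zim1, Copg2 and Ppp1r9a, grouped as maternally expressed, and Magel2, Mkrn3 and Peg12, grouped as paternally expressed, are also neighbours. Ascl2 is both a trophoblast marker and a gene grouped as maternally expressed. The lists below overlap too: Igf2 is also counted in the insulin and IGF pathway, and Magel2 among the relatives of the members. Of 17 tested genes grouped as other paternally expressed, 7 were higher and 3 lower in K36M than in WT under TGFb (led by Igf2, a growth factor, log2 6.16 ± 0.23 SE), and 6 were higher and 4 lower under Repsox (led by Slc38a4, an amino acid transporter, 1.49 ± 0.07). In TGFb against Repsox, 4 were higher and 6 lower in K36M cells (led by Slc38a4, -1.91 ± 0.08), and 4 were higher and 8 lower in WT cells (led by Igf2, -7.16 ± 0.23). The 2 WT TGFb libraries differed widely for Igf2, with a mean of 8.22 ± 7.25 CPM, and for H19, with 19.1 ± 15.6 CPM (SD). Of 22 tested maternally expressed genes, 14 stood higher in K36M than in WT and 6 lower under TGFb (led by H19, a long noncoding RNA, 7.01 ± 0.26), and 10 were higher and 7 lower under Repsox (led by Phlda2, a brake on placental growth, 1.69 ± 0.11). In TGFb against Repsox, 6 were higher and 8 lower in K36M cells and 6 were higher and 12 lower in WT cells, both led by Cdkn1c, an inhibitor of the cell cycle (-3.08 ± 0.10 in K36M and -6.31 ± 0.14 in WT). The median K36M over WT difference under TGFb was 0.13 over the other paternally expressed genes, 1.29 over the maternally expressed ones and 1.75 over the 9 members. The members and these lists were chosen with earlier results of these data known, so the order of the medians is a description only.

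Genes that set, keep or erase imprints were mostly lower under TGFb. Of 16 tested, 11 were lower in K36M cells and 13 in WT cells, with the others not called, both led by Tet1, an enzyme that oxidises methylated cytosine (-1.29 ± 0.07 in K36M and -5.70 ± 0.10 in WT). Against WT, K36M cells had 12 higher and 1 lower under TGFb (led by Tet1, 4.31 ± 0.10) and 6 higher and 3 lower under Repsox (led by Dnmt3l, a cofactor of de novo DNA methylation, 2.16 ± 0.13). Their median log2 effect of TGFb over Repsox was -0.41 in K36M cells, against 0.01 over all genes, and -1.10 in WT cells, against -0.07 over all genes. In the insulin and IGF pathway, which Grb10 acts on, 9 of 20 tested genes were higher and 11 lower in K36M than in WT under TGFb (led by Igf2bp1, a binder of Igf2 mRNA, 3.18 ± 0.07). Under Repsox 8 were higher and 6 lower (led by Pik3r1, a subunit of PI3-kinase, -2.66 ± 0.11). In TGFb against Repsox, 8 were higher and 8 lower in K36M cells (led by Akt1, a kinase downstream of PI3-kinase, -1.36 ± 0.08), and 9 were higher and 8 lower in WT cells (led by Igf2bp1, -2.78 ± 0.07).

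Relatives of the members by protein family were counted as well, with a median K36M over WT difference of -0.46 under TGFb. Grb7, an adaptor of the Grb10 family, had 69.4 ± 4.32 CPM in K36M TGFb and 77.8 ± 2.63 in K36M Repsox, against 1.07 ± 0.192 in WT TGFb and 30.4 ± 2.84 in WT Repsox. It led the 14 tested relatives for K36M over WT under TGFb (log2 6.03 ± 0.17), where 4 were higher and 7 lower, and under Repsox (1.35 ± 0.10), where 4 were higher and 8 lower. In TGFb against Repsox, 5 relatives were higher and 2 lower in K36M cells (led by Ldoc1, a retrotransposon-derived gene, -4.45 ± 0.30), and 7 were higher and 3 lower in WT cells (led by Grb7, -4.84 ± 0.19).

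Genes outside the group were ranked by how closely their log2 CPM, centred on the gene's own mean over the 8 libraries, followed each member, as a root-mean-square difference among 10801 candidates. The nearest to Peg3 were Cecr2, a chromatin remodelling gene (0.12), and Sall4, a pluripotency transcription factor (0.20). For Peg10 they were Lrrc34 (0.16) and Trpm6, a magnesium channel gene (0.24), and for Sfmbt2 Mfsd7c, a membrane transporter gene (0.17), and Nup62cl (0.20). Plagl1 was followed most closely by Spsb1, an adaptor of ubiquitin ligases (0.15), and Ttyh1, a membrane protein gene (0.24), and Mest by Apobec1, a cytidine deaminase gene (0.13), and Sepp1, a selenium carrier gene (0.18). Sgce was nearest to Egln3, a prolyl hydroxylase gene (0.13), and Nnat to Poli, a DNA polymerase gene (0.08), and Mgat3, a glycosyltransferase gene (0.12). Grb10 lay beside Pdha1, a subunit of pyruvate dehydrogenase (0.04), and Ybx1, a nucleic acid binding protein (0.07), and Ndn beside Tbc1d16 (0.15) and Samd4 (0.18). Among the members, the closest pairs were Sgce with Nnat (0.37), Peg10 with Sfmbt2 (0.44) and Peg3 with Peg10 (0.51). Many genes outside the group lay nearer than these partners. Of the candidates, 260 were nearer to Sgce than Nnat was, and 422 nearer to Nnat than Sgce was. For Peg10 and Sfmbt2 these counts were 12 and 17, and 48 candidates were nearer to Peg3 than Peg10 was. The points behind each difference are 8 libraries in 4 groups, which share depth and group means. A gene that changes little lies near many others in this measure: the median difference over all candidates was 2.09 for Peg3 and 0.47 for Grb10.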

How the data were processed

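The deposited table gave whole read counts per gene for 8 RNA-seq libraries made after depletion of ribosomal RNA, per the labels' protocols. Per the submitters' processing notes the authors used STAR 2.5.0, HTSeq 0.11.2 and edgeR with mm9; roles, annotation, strand setting and filters are not given in the sources used here. The test was edgeR's quasi-likelihood F test (version 4.0.16, under R 4.3.3) over 4 group means, after filterByExpr, which left 15789 genes with all 9 members among them, and TMM scaling by 0.894 to 1.06 (4 residual and 17.5 prior degrees of freedom, common biological coefficient of variation 0.0702). P-values were Benjamini-Hochberg adjusted over all tested genes at a threshold of 0.05, and log2 fold changes carry standard errors computed as their absolute value divided by F's square root. Spread is moderated across genes, so for a gene whose libraries differ widely the error can be too small. Averaged effects and the interaction came from the same fit. The medium comparisons share libraries with the genotype comparisons. Replicates differed by more than counting error, with a chi-square per degree of freedom of 2.70 to 9.09. Gene positions, exonic lengths and overlaps came from GENCODE vM1 on mm9, in which 26763 of 26930 identifiers were found, and promoters from RefSeq on GRCm38.p6. Alternatives were DESeq2 size factors, no filter on low counts, DESeq2 1.42.0, a replicate block, the compared groups alone, and leaving out each library. The calculation was tested on simulated data. The simulation drew libraries independently and changed few genes, so it checked the code and not the calls given here. The members and all gene lists were chosen with earlier results of these data known. Genes beside the members are named by a rule, with exceptions. The rule allows the 2 nearest in expression to each member (mean log2 CPM of at least 2, prior count 2) and tested neighbours within the imprinted domains. It also allows the called gene with the smallest adjusted p of each list in each comparison. Elavl3, Syp, Lum and Tpbpa are named because few genes of their lists shared the result given. Magel2 and Grb7's levels were added for their values. One gene among those with a pattern most like a member's is not reported here.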

Additional observations from a re-analysis of the deposited data

Results flagged for a closer look

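The effect of TGFb over Repsox differed between K36M and WT cells, by the interaction test of edgeR (Benjamini-Hochberg adjusted p below 0.05, 51.0% of all genes called), for 7 of the 9 members. On the log2 scale, K36M minus WT, the difference was 3.25 for Peg3, 2.97 for Mest, 2.79 for Peg10, 2.75 for Sfmbt2, 0.82 for Nnat, 0.65 for Grb10 and 0.29 for Plagl1. For Mest the medium effects had opposite signs. Both K36M TGFb libraries stood above both K36M Repsox libraries, and both WT TGFb libraries stood below both WT Repsox libraries. For Plagl1 the difference lost its call under 10 of 12 alternatives.

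The same test was passed by 13 genes near the members. The difference was positive for Zim1 (3.17), Itih5 (3.11), Fignl1 (1.77), Mkrn3 (1.17), Ctnnbl1 (0.59) and Sf3b5 (0.56). It was negative for Ikzf1 (-5.04), Cpa4 (-3.76), Blcap (-1.46), Cobl (-1.10), Casd1 (-0.91), Ppp1r9a (-0.69) and Src (-0.60). The value of Ikzf1 rests on 3 counts in all in WT Repsox and that of Cpa4 on 5, so both fitted values depend on the prior count and are no bounds. Cpa4 also had only 5 and 2 counts in K36M TGFb and 2 and 7 in K36M Repsox. The values of Zim1 and Itih5 rest on few counts as well, 8 and 4 for Zim1 and 2 and 4 for Itih5 in WT TGFb. Cpa4 was at -2.49 and not called without K36M Repsox replicate 2 (adjusted p = 0.254, over all alternatives 0.00457 to 0.254). Mkrn3 was not called without K36M TGFb replicate 1, K36M Repsox replicate 1, WT TGFb replicate 1 or WT Repsox replicate 2, each left out in turn (0.90 to 1.06, adjusted p = 0.0541 to 0.0755, over all alternatives 0.00433 to 0.0755). Ctnnbl1 was not called without K36M TGFb replicate 1 (0.41, adjusted p = 0.0788) or K36M Repsox replicate 2 (0.46, adjusted p = 0.0512), with 0.00154 to 0.0788 over all alternatives. No library was flagged for standing apart, since groups of 2 cannot be tested for that.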

How the results depend on the processing

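The comparisons of groups that differ in both factors, which the orders of levels partly rest on, had no alternatives. Over 63 other member results and 792 alternative values, 761 kept the direction and the side of the threshold, 25 lost a call, 2 gained one and 4 changed sign. The causes were not tested. The sign changed for results that were not called: TGFb against Repsox in WT cells for Grb10 was -0.00225 with no filter on low counts and -0.0384 to 0.0649 with 1 library left out (below 0 without WT TGFb replicate 2 or WT Repsox replicate 1). K36M against WT under Repsox for Ndn was -0.40 to 0.25 with 1 library left out, above 0 without K36M Repsox replicate 1. Averaged over media, 1 member was lower in K36M by DESeq2, and 0 to 2 were when 1 library was left out, against 2 with all libraries. Leaving out 1 library gave 0 to 1 lower members for K36M against WT under TGFb and 0 to 1 negative interactions. Of the 137 called results for other named genes, 1755 alternative values held 1709 that kept the call, 46 that lost it and 0 of the other sign.

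Replicate numbers are shared by the groups, but samples of the same number did not deviate together (correlations of -0.0318 to 0.0928 over 11736 genes), so a replicate block was only an alternative. With the replicate block, 5739 genes were higher and 5365 lower in K36M than in WT under TGFb, and 4594 higher and 4286 lower under Repsox. For TGFb against Repsox the block gave 3905 higher and 3765 lower in K36M and 4605 higher and 5261 lower in WT cells, and for the interaction 4513 positive and 3587 negative. The block changed no member's call. Of the 25 lost calls, 10 were of Plagl1, 7 of Ndn, 6 of Grb10, 1 of Nnat and 1 of Sgce. With 2 libraries a group, small differences may be missed.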
